A study of Homo sapiens with 2 samples.

Results

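The miR-320 family was examined in exosomes, small vesicles that cells release, from 2 human liver tumour cell lines. Every listed mature miRNA whose name is miR-320 followed by a letter from a to e was taken as a member. This gave 6 of 793 listed miRNAs: hsa-miR-320a-3p, hsa-miR-320a-5p, hsa-miR-320b, hsa-miR-320c, hsa-miR-320d and hsa-miR-320e. The species prefix is left out where it adds nothing. The lines were MHCC97H, a hepatocellular carcinoma line selected for its capacity to metastasise, and HepG2, which is labelled hepatocellular carcinoma and is often classed as hepatoblastoma. Neither line is given a treatment or an engineered allele in the labels. Both grew in medium whose serum was free of exosomes, and vesicles were spun out of the supernatant. There was 1 small RNA library per line, so no value has a replicate and no difference between the lines could be tested.

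Most miRNA hairpins are cut out of a longer transcript by the nuclear enzyme Drosha and then trimmed by Dicer in the cytoplasm. The precursor of miR-320, studied mainly in mouse and for human miR-320a, skips the first cut. Transcription starts at the base of the hairpin, the short RNA carries a cap, and Dicer alone releases the miRNA, nearly always from the 3p arm. The human relatives miR-320b to miR-320e come from other loci. miR-320a has been reported to lower beta-catenin and glycolytic phosphofructokinase in tumour and muscle cells. Read counts of mature miRNAs cannot show which enzyme made them, so independence from Drosha was not checked here.

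The mature sequences are shown because the names differ mostly at the 3′ end, and that end decides which name a read receives. They are from RefSeq (GRCh38.p14), which supplied 4 of the 6 members. miR-320a-3p and miR-320a-5p are named only. miR-4429 is added as the only miRNA outside the family with the seed of miR-320b among the 704 listed miRNAs that have a RefSeq sequence. miR-320a was not among these, so its seed was not compared. Capitals mark the seed, bases 2 to 8, which leads the pairing with target RNAs.
miR-320b: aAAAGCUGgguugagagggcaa
miR-320c: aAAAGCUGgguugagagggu
miR-320d: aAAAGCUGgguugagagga
miR-4429: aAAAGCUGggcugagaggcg
miR-320e: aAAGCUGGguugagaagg
miR-320b, miR-320c, miR-320d and miR-4429 share the seed AAAGCUG. miR-320e is annotated to begin at the position of base 2 of miR-320b, so its seed is AAGCUGG. The first 18 bases of miR-320b, miR-320c and miR-320d are identical. miR-320b and miR-320c share 19. Positions counted from 1 at the 5′ end of miR-320b give the substitution C20U for miR-320c and G19A for miR-320d, each at the last base of the shorter miRNA. miR-320e carries G17A, and miR-4429 carries U11C, G19C and C20G. A read of the common 18 bases fits miR-320b, miR-320c and miR-320d alike. The overlap of these with miR-320a-3p was not computed, and reads shared with it would enter each share and each ratio to miR-320a-3p given here. How the authors assigned such reads is not given in the sources used here.

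miR-320b, miR-320c and miR-320d each have a pair of hairpin genes, and miR-320e has 1. The hairpins are shown because the table lists the paired names more than once and copies can be told apart only by bases outside the mature miRNA, here in capitals.
MIR320B1: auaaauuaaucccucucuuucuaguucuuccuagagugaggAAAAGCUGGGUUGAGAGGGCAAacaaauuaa
MIR320B2: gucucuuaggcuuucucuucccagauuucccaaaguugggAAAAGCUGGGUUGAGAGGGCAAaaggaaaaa
MIR320C1: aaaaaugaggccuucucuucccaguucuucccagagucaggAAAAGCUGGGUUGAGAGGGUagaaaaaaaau
MIR320C2: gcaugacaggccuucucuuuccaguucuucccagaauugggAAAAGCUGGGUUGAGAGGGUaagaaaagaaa
MIR320D1: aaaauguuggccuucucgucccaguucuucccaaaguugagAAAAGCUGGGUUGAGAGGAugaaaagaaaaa
MIR320D2: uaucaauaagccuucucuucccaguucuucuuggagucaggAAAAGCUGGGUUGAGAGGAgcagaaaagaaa
After the mature sequence, the copies of miR-320b and of miR-320c share 1 further base, and those of miR-320d share 0. Before it, they share 2, 2 and 1.

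In GRCh38, MIR320B1 lies at chr1:116671746-116671817 on the plus strand and overlaps no other gene of GENCODE release 29. MIR320B2 lies at chr1:224257040-224257110 on the minus strand, in an intron of NVL on the same strand. MIR320C1 (chr18:21683518-21683589, plus strand) and MIR320C2 (chr18:24321675-24321746, plus strand) lie opposite introns of ABHD3 and OSBPL1A. MIR320D1 (chr13:40727816-40727887, minus strand) and MIR320D2 (chrX:140926160-140926231, minus strand) overlap no other gene. MIR320E (chr19:46709282-46709354, minus strand) lies in an intron of PRKD2 on the same strand. The gene of miR-320a is on a different chromosome from all of these.

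Counts under the listed miRNAs summed to 304457 in MHCC97H and 22831 in HepG2, 13.3 times as many in MHCC97H. A read that fits several names may be in these totals more than once, and the total of sequenced reads was not used here. Levels are given as CPM, read counts scaled to a common total of miRNA reads. A single read is worth 3.28 CPM in MHCC97H and 43.8 CPM in HepG2. Reads carry no molecular identifiers, so all 95% intervals, exact Poisson for a level and exact Clopper-Pearson for a ratio or share, cover counting error only. A miRNA was called higher in a library when it was at least 2-fold higher in CPM and the interval of the ratio excluded 1. The filter required 10 CPM in either library. Of the 543 miRNAs that passed it, 9.02% were called higher in HepG2 and 20.4% in MHCC97H. With a single preparation per line, effects of the line and of its preparation cannot be told apart.

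HepG2 exosomes carried relatively more miR-320b, miR-320c and miR-320d, by about the same factor, while miR-320a-3p stood at the same CPM in both libraries. Of the 6 members, 5 passed the 10 CPM filter. 3 of these were called higher in HepG2, none was called higher in MHCC97H, and miR-320a-3p and miR-320e were called in neither direction. The median log2 ratio of HepG2 over MHCC97H (with 1 CPM added) was 1.56 over these 5 members and -1.12 over all 543 miRNAs. Among the 137 miRNAs averaging 500 CPM or more, where counting error matters less, 18.2% were called higher in HepG2 and 49.6% in MHCC97H. There, 3 of 4 members were called higher in HepG2, and the median log2 ratio over all 137 miRNAs was -0.99. miR-320b, miR-320c and miR-320d may share reads, so these calls and their like factors are not 3 independent results. The median of 1.56 over the members is the value of miR-320b.

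**Figure D1:**
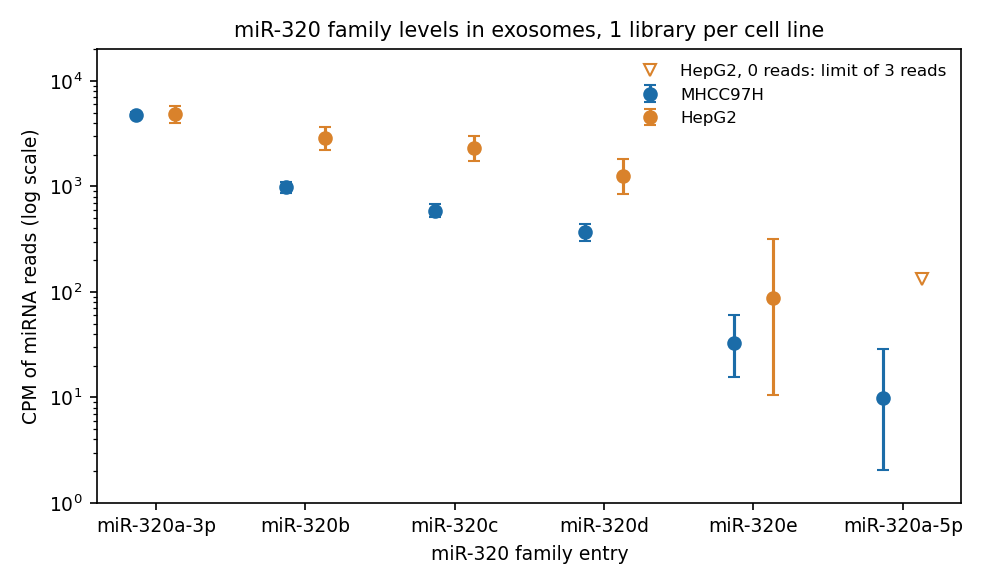
CPM of miRNA reads (log axis) of each miR-320 family entry in the MHCC97H and HepG2 libraries; points are single libraries, bars are 95% exact Poisson intervals, and the open triangle is the limit that 0 reads allows. miR-320a-3p is level at 4799 and 4862 CPM, while miR-320b, miR-320c and miR-320d lie higher in HepG2 with intervals that do not overlap.

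miR-320a-3p, the most studied member, was the most abundant of the family in both libraries. It had 1461 reads in MHCC97H and 111 in HepG2, which are 4799 CPM (4556 to 5051) and 4862 CPM (3999.5 to 5855). The ratio of HepG2 over MHCC97H was 1.01 (0.828 to 1.23), so a difference of 2-fold in either direction lay outside its counting interval. It ranked 44th of the listed miRNAs in MHCC97H and 28th in HepG2. The opposite arm, miR-320a-5p, had 3 reads in MHCC97H (9.85 CPM) and 0 in HepG2, and it did not pass the filter. The limit of 3 reads that a count of 0 allows is 131 CPM in HepG2, and the upper end of the two-sided Poisson interval is 162 CPM. The 3p arm thus held 99.8% of the 1464 miR-320a reads in MHCC97H (99.4 to 99.96%) and 100% of 111 in HepG2 (96.7 to 100%).

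miR-320b, listed as hsa-miR-320b, had 299 reads in MHCC97H and 66 in HepG2. Its level was 982 CPM (874 to 1099.9) in MHCC97H and 2891 CPM (2236 to 3678) in HepG2, 2.94-fold higher in HepG2 (2.22 to 3.85). It moved from rank 109 in the MHCC97H list to rank 39 in the HepG2 list. Rank alone does not show a change in level, since miR-320a-3p, at the same CPM in both, also went from rank 44 to rank 28. Fewer miRNAs were detected in HepG2 (362) than in MHCC97H (763). Both libraries had a level far above the value of a single read.

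hsa-miR-320c showed the highest ratio of the called members, with 180 reads against 53. The levels were 591 CPM (508 to 684) in MHCC97H and 2321 CPM (1739 to 3036) in HepG2, a 3.93-fold difference (2.83 to 5.36). hsa-miR-320d had 112 reads against 29, or 368 CPM (303 to 443) against 1270.2 CPM (851 to 1824). It was 3.45-fold higher in HepG2 (2.21 to 5.23). The ratio intervals of miR-320b, miR-320c and miR-320d overlap, and each lies wholly above that of miR-320a-3p.

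miR-320e, whose annotated 5′ end and seed are shifted, was rare. It had 10 reads (32.8 CPM) in MHCC97H and 2 reads (87.6 CPM) in HepG2. The ratio of 2.67 had an interval from 0.284 to 12.5, so a difference was not detectable at this depth. miR-4429, which shares the seed of miR-320b, had 2 reads in MHCC97H and 1 in HepG2.

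**Figure D2:**
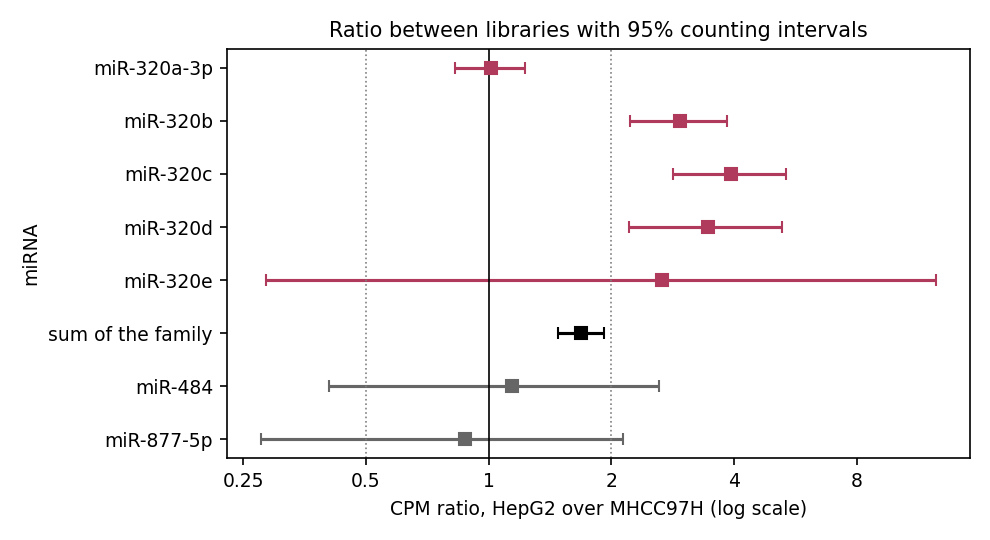
CPM ratio of HepG2 over MHCC97H (log axis) for the miR-320 members past the filter, the sum of the 6 members, and the other Drosha-independent miRNAs past the filter, with 95% counting intervals. The solid line marks equal CPM and the dotted lines a 2-fold difference; miR-320b, miR-320c and miR-320d lie at 2.94, 3.93 and 3.45, to the right of the upper line with their whole intervals.

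The order of levels was the same in both libraries: miR-320a-3p, then miR-320b, miR-320c, miR-320d, miR-320e and miR-320a-5p. These are reads per mature miRNA, each read covering about the whole molecule, and were not divided by length. In MHCC97H the Poisson intervals of neighbours did not overlap from miR-320a-3p down to miR-320e, and those of miR-320e and miR-320a-5p did. In HepG2 the intervals of miR-320b and miR-320c overlapped, as did those of miR-320c and miR-320d and those of miR-320e and miR-320a-5p. The order of those neighbours is therefore not separated by counting error in HepG2.

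The make-up of the family differed between the libraries. A share within the family needs no scaling between libraries, so the gap in miRNA reads bears only on its precision. miR-320a-3p held 70.8% of 2065 family reads in MHCC97H (68.7 to 72.7%) and 42.5% of 261 in HepG2 (36.5 to 48.8%). miR-320b, miR-320c and miR-320d together held 28.6% (26.7 to 30.6%) in MHCC97H and 56.7% (50.5 to 62.8%) in HepG2. These shares and intervals treat the reads of miR-320b, miR-320c and miR-320d as separate. A read counted under several of these names would enter the family total repeatedly. Without such repeats their joint share would be lower and that of miR-320a-3p higher. Whether they held most family reads in HepG2 is therefore not settled.

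Each of the variable 3′ end forms took a greater share of the family in HepG2. miR-320b made up 14.5% in MHCC97H (12.99 to 16.1%) and 25.3% in HepG2 (20.1 to 31.0%). miR-320c made up 8.72% (7.54 to 10.02%) and 20.3% (15.6 to 25.7%), and miR-320d 5.42% (4.49 to 6.49%) and 11.1% (7.57 to 15.6%). The intervals of the libraries do not overlap for any of these members, whereas those of miR-320e do, at 0.484% (0.232 to 0.889%) and 0.766% (0.0929 to 2.74%).

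**Figure D3:**
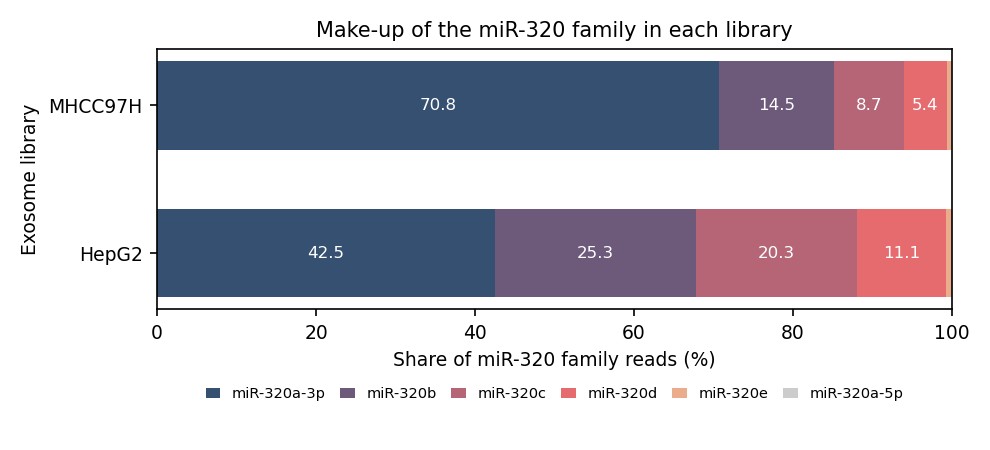
Share of miR-320 family reads (%) held by each member in the MHCC97H library (2065 reads) and the HepG2 library (261 reads). miR-320a-3p takes 70.8% in MHCC97H and 42.5% in HepG2, with the rest going mainly to miR-320b, miR-320c and miR-320d. A read counted under several names would enter these shares repeatedly.

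Set against miR-320a-3p, there were 0.405 reads of miR-320b, miR-320c and miR-320d together per miR-320a-3p read in MHCC97H and 1.33 in HepG2. This is a 3.30-fold difference (exact conditional interval 2.51 to 4.33). Singly it was 2.91-fold for miR-320b (2.05 to 4.08), 3.88-fold for miR-320c (2.64 to 5.63) and 3.41-fold for miR-320d (2.09 to 5.43). Among miR-320b, miR-320c and miR-320d the proportions were closer. miR-320c stood at 0.602 reads per miR-320b read in MHCC97H and 0.803 in HepG2, a 1.33-fold difference (0.869 to 2.04). For miR-320d per miR-320b read it was 1.17-fold (0.692 to 1.95), and for miR-320d per miR-320c read 0.879-fold (0.507 to 1.504). All 3 of these intervals include 1.

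Because miR-320b, miR-320c and miR-320d may share reads, their counts are not 3 independent measurements. If every read of miR-320c and miR-320d were also counted as miR-320b, miR-320b alone would stand for all 3. The ratio to miR-320a-3p would then be 2.91-fold higher in HepG2, and the sum of the family 1.35-fold (1.15 to 1.57). Sharing of reads between miR-320b and miR-320a-3p was not tested. The table lists each of these names more than once. miR-320b had 276 and 299 reads in MHCC97H and 66 in both HepG2 entries. miR-320c had 180 and 179 reads in MHCC97H and 53 in both HepG2 entries, and miR-320d had 112 and 111 in MHCC97H and 29 and 28 in HepG2. The entries of a name are thus nearly equal, and the table does not say which hairpin an entry stands for. The highest count of each name was used.

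Summed over the 6 members, the family held 6783 CPM (6493 to 7082) in MHCC97H and 11432 CPM (10087 to 12906) in HepG2. That is 0.678% and 1.14% of miRNA reads. The sum was 1.69-fold higher in HepG2 (1.48 to 1.92), which is under the size criterion. miR-320b, miR-320c and miR-320d alone summed to 1941 CPM (1788 to 2104) and 6482 CPM (5480.1 to 7615), a 3.34-fold difference (2.77 to 4.01).

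Ratios between libraries depend on how they are scaled, because most miRNAs leaned to MHCC97H. With the median log2 ratio of all 543 miRNAs set to 0, miR-320b was 6.38-fold, miR-320c 8.51-fold and miR-320d 7.49-fold higher in HepG2. miR-320a-3p was then also called higher there, at 2.20-fold (1.79 to 2.67). With totals taken over all but the 16 leading miRNAs (the 10 most abundant of either library), miR-320a-3p was 1.61-fold (1.31 to 1.95) and the other 3 were 4.67-fold, 6.23-fold and 5.47-fold higher in HepG2. The level state of miR-320a-3p therefore holds for library totals and for edgeR's trimmed mean of M-values (TMM), where its ratio was 1.05 (0.858 to 1.27). Over all miRNAs, HepG2 took 30.6% of calls with library totals. It took 64.2% after median centring and 50.3% after the reduced total.

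**Figure D4:**
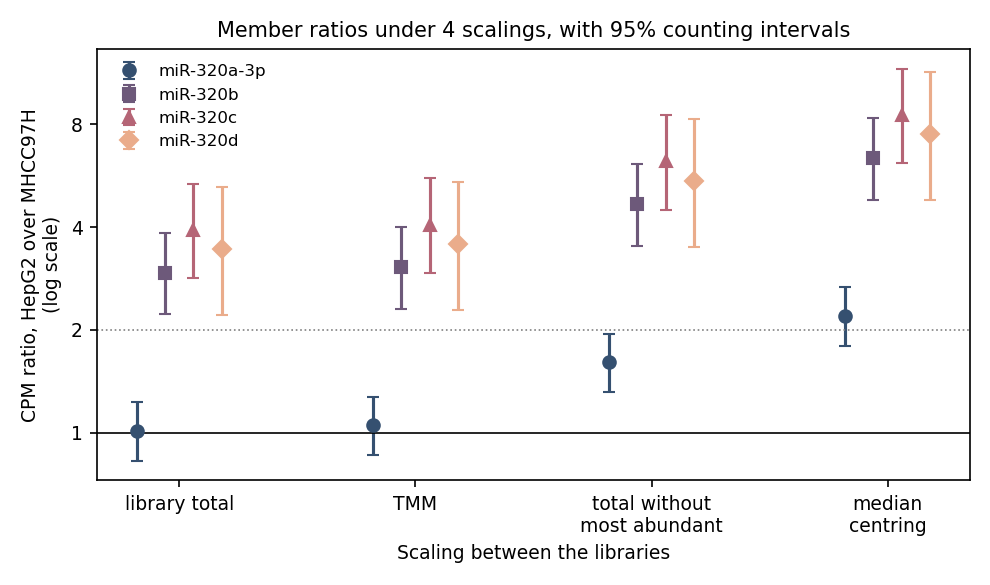
CPM ratio of HepG2 over MHCC97H (log axis) of miR-320a-3p, miR-320b, miR-320c and miR-320d under 4 scalings of the libraries, with 95% counting intervals; the dotted line marks 2-fold. All 4 ratios shift together, miR-320a-3p from 1.01 with library totals to 2.20 with median centring, and the distance between miR-320a-3p and the other 3 stays the same.

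miRNAs outside the family that are described as made without Drosha were compared. The list held miR-484, whose precursor is capped like that of miR-320a, and 10 mirtrons, miRNAs spliced out as whole short introns. Whether miR-320b to miR-320e are made in this way was not checked. 4 of the 11 names had entries in the table, 6 in all, and 2 entries passed the 10 CPM filter. miR-484 had 70 reads in MHCC97H and 6 in HepG2, or 230 against 263 CPM, a ratio of 1.14 (0.406 to 2.62). The mirtron miR-877-5p had 76 and 5 reads, or 249.6 against 219 CPM, a ratio of 0.877 (0.277 to 2.14). Neither was called, against the 9.02% and 20.4% of all miRNAs given above, and both intervals overlap that of miR-320a-3p. The interval of miR-484 also overlaps those of miR-320b and miR-320d and ends below that of miR-320c, while that of miR-877-5p ends below all 3. The difference from the members was not tested. miR-877-3p and miR-1226-5p had 3 MHCC97H reads each, miR-1227-3p had 2 and miR-1226-3p had 1, all with 0 in HepG2. Both tested miRNAs were far less abundant than miR-320a-3p in each library.

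Outside the family, the miRNAs with levels most like those of a member were found by Euclidean distance of log2(CPM + 1) over both libraries. For miR-320a-3p they were miR-140-3p (distance 0.38), miR-126-3p, miR-106b-3p, miR-23a-3p and miR-103a-3p. For miR-320b they were miR-374b-5p (0.59), miR-142-5p, miR-30b-5p, miR-30e-5p and miR-199b-5p. miR-320c was nearest to miR-493-5p (0.29) (512 CPM in MHCC97H, 2015 CPM in HepG2), and then to miR-199b-5p, miR-374b-5p, miR-146b-5p and miR-200b-3p. miR-320d was nearest to miR-146b-5p (0.37), at 319 and 1577 CPM, followed by miR-200b-3p, miR-493-3p, miR-411-5p and miR-493-5p. miR-320e had the same counts as miR-4516, with miR-548e-3p, miR-654-3p, miR-136-5p and miR-363-3p next. miR-320a-5p shared its counts of 3 and 0 with 32 other miRNAs, so no nearest 5 could be singled out. The family sum lay nearest to miR-93-5p (0.50), miR-101-3p, miR-92a-3p, miR-26a-5p and miR-126-3p. With 2 libraries, such nearness says only that the levels were alike.

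**Figure D5:**
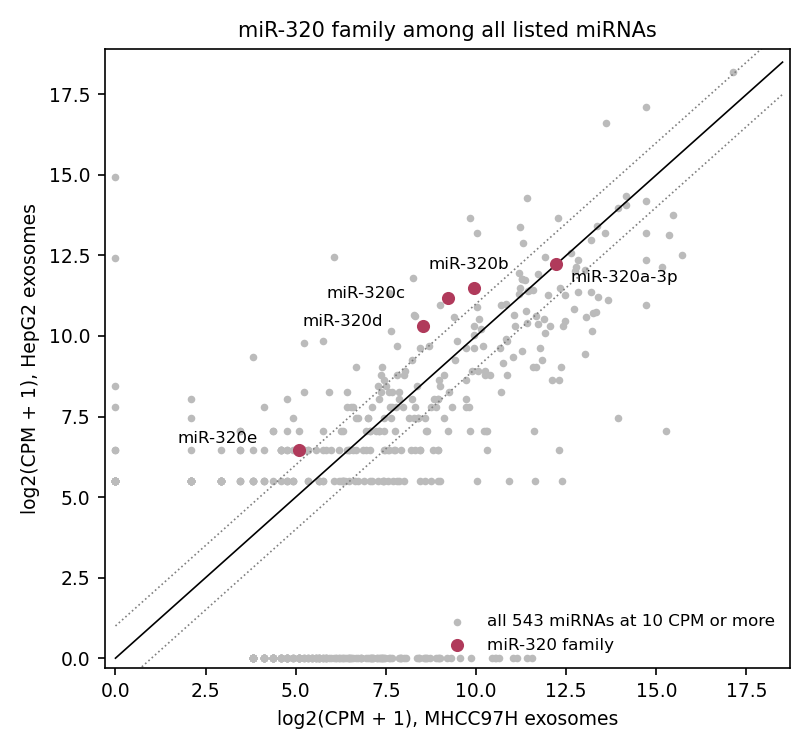
log2(CPM + 1) in HepG2 against MHCC97H exosomes for the 543 miRNAs at 10 CPM or more (grey) and the 5 miR-320 members among them (red); the solid line marks equal CPM and the dotted lines a 2-fold difference. miR-320a-3p lies on the line of equal CPM, and miR-320b, miR-320c and miR-320d lie above the upper dotted line.

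Markers of liver and blood cells were read in the same libraries. The liver markers (miR-122, miR-148a, miR-192, miR-194 and miR-885, 10 entries) summed to 32031 CPM in MHCC97H and 158600 CPM in HepG2. Of the 7 entries past the filter, 4 were called higher in HepG2 and 1 in MHCC97H. Most of the sum was miR-148a-3p (26976 and 142438 CPM), and the entry called for MHCC97H was its other arm, miR-148a-5p. miR-122-5p, which defines hepatocytes, was present at 979 CPM in MHCC97H and 1051 CPM in HepG2, and miR-885-5p had 0 reads in MHCC97H. Red cell and platelet markers (miR-451a, miR-486 and miR-144, 5 entries) summed to 12327 and 25317 CPM, with 1 of 5 called higher in HepG2 and miR-486-3p at 0 there. The called entry was miR-451a (2716 and 20104 CPM). The other 4 were all lower in HepG2 and summed to 9611 and 5212 CPM, and the median log2 ratio of the list was -0.98. Leukocyte markers (miR-142, miR-223 and miR-150, 5 entries) summed to 2276 and 5212 CPM, again with 1 of 5 called higher in HepG2 and none at 0. The called entry was miR-142-3p (191 and 2584 CPM). miR-142-5p and miR-223-3p were higher in HepG2 without a call, and miR-223-5p and miR-150-5p were lower there. The sums of these lists were higher in HepG2, as miR-320b, miR-320c and miR-320d were. The red cell and platelet sum was so only through miR-451a, the liver sum mostly through miR-148a-3p and the leukocyte sum mostly through miR-142-3p. The part of these markers in the result was not tested.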

How the data were processed

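Per the file headers, the values deposited are unnormalized read counts of each mature miRNA, with a column for each of the 2 libraries. cutadapt and Bowtie are named in the submitters' processing notes. Not given in the sources used here are the miRBase release, the build, tool versions, permitted mismatches, and how reads that fit several miRNAs were handled. There are 915 entries under 793 names. A repeated name counted once, at its highest count. From the counts, CPM, CPM ratios and exact 95% intervals were computed (scipy 1.17.1 and pandas 2.3.3 under Python 3.11.15). TMM factors came from edgeR 4.0.16 in R 4.3.3, and figures from matplotlib 3.10.9. With 1 library per line, no test was made. The interval and call rule were run on simulated counts with Poisson error alone, drawn from the mean make-up of the 2 libraries at their totals. The simulation held no variation between preparations and no shared reads, so it checks the computation only. Members, lists and rules were chosen with earlier results of these data known. miRNAs named were the members, detected entries of the Drosha-independent list, listed miRNAs sharing the miR-320b seed, the 5 nearest in level to each member and to the sum, and cell markers. Alternatives changed scaling, repeats, filter, fold, pseudocount and call rule. Sequences are RefSeq's, matched by name.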

Additional observations from a re-analysis of the deposited data

How the results depend on the processing

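miR-320b, miR-320c and miR-320d kept their direction and their call for HepG2 under each of 3 other scalings and 2 other ways of counting repeated names. Each of these scalings raised all ratios towards HepG2 (miR-320b from 2.94 to 3.05 with TMM and 6.38 with median centring). They could therefore not remove a call for HepG2. The repeated entries of a name were nearly equal, so the ways of counting them could hardly do so either. The 1.69-fold family sum passed 2-fold with median centring (3.65), with the total without the most abundant miRNAs (2.67) and with repeats summed (2.33). It was 1.75 with TMM, 1.70 with the lowest repeat, and 1.35 with miR-320b standing for miR-320b, miR-320c and miR-320d. miR-320a-3p passed 2-fold with median centring (2.20). Setting the median to 0 shifts every ratio by the same factor. Summing repeats adds the entries of miR-320b, miR-320c and miR-320d and leaves miR-320a-3p as it is. This weights the family sum of 2.33 towards the members that were higher in HepG2. The same weighting raised the miR-320b share to 21.9% in MHCC97H and 32.4% in HepG2. At a 4-fold criterion 0 members were called, against 3. Calls by size alone numbered 418 over all miRNAs (137 for HepG2, 281 for MHCC97H), and 412 with a pseudocount of 10 CPM, against 160. The alternatives for miR-320a-3p, for the ratio of miR-320b, miR-320c and miR-320d to it, for miR-320b standing alone, and for the lowest repeat over all miRNAs were chosen after seeing the data. Depth limits miR-320e, miR-320a-5p and miR-484, with at most 6 HepG2 reads. No paired analysis was possible because there was 1 library per cell line.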

Other observations

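Short mature length is a feature that miR-320c, miR-320d and miR-320e share. Among the other miRNAs at 10 CPM or more with a RefSeq sequence, 6 of 44 with 20 bases or fewer were called higher in HepG2 and 6 in MHCC97H, with a median log2 ratio of HepG2 over MHCC97H of -0.62. Of 437 with 21 bases or more, 35 were called higher in HepG2 and 93 in MHCC97H, with a median of -1.48. Among miRNAs averaging 500 CPM or more, 4 had 20 bases or fewer: miR-1246 and miR-1290, called higher in HepG2, miR-1260b, called higher in MHCC97H, and miR-1260a, called in neither direction. Their median was 1.003, against -1.10 for the 115 longer ones, but it lies between values of opposite sign. The log2 ratios were 3.00 for miR-1246 and 3.17 for miR-1290, against -0.99 for miR-1260a and -1.35 for miR-1260b. The turn of sign therefore rests on miR-1246 and miR-1290. This split by length was chosen after the values were seen, and its part in the miR-320 result was not tested.

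The tetramers GGAG and CCCU, motifs that have been linked to loading of miRNAs into exosomes, were searched on the miRNA strand of 704 listed miRNAs with a RefSeq sequence. GGAG occurred in 12.9% and CCCU in 9.80% of them. Neither occurred in miR-320b, miR-320c, miR-320d or miR-320e, which says only that these letters are not in those sequences.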
